A study of Mus musculus with 10 samples.

Results

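The 46 protein-coding genes described here encode Wnt ligands, their Frizzled receptors, the Lgr4 to Lgr6 receptors, and the secreted proteins that modulate the ligands. They were chosen by gene name and biotype in the deposited table and are 46 of the 55385 genes listed there. They comprise 19 Wnt ligands, 10 Frizzled receptors, 3 Lgr receptors, 4 R-spondins, 5 secreted Frizzled-related proteins (Sfrp1, Sfrp2, Sfrp4, Sfrp5 and Frzb), 4 Dickkopf proteins and Wif1. RNA sequencing was done on 10 samples of 1 mouse ovarian tumour line, called APV245 by the sample labels but APC245 by the design text, which derives from a tumour with mutations in both Arid1a and Pik3ca, so every sample carries these. The label IL6 shRNA1 (genotype IL6 knockdown) was on 5 samples, and the other 5 carried the pLKO.1-puro control shRNA, which matches no mammalian gene (genotype WT). No treatment was given in either group, and the labels give 1 batch. The sample labels describe cells cultured in DMEM with serum, whereas the design text describes tumours grown under the skin from these lines, and neither the number of clones, the age of the mice nor the separate origin of the replicates is given, so p-values measure only the spread between these samples.

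Wnt proteins are lipid-modified secreted glycoproteins. With Frizzled receptors and the co-receptors Lrp5 or Lrp6 they block the complex that destroys beta-catenin, which then acts with TCF/LEF factors on target genes, while other ligands, among them Wnt5a and Wnt11, signal mainly without beta-catenin to control cell polarity and movement. R-spondins bind Lgr4, Lgr5 or Lgr6 and keep Frizzled receptors on the cell surface by neutralising the ubiquitin ligases Znrf3 and Rnf43. Sfrps and Wif1 bind the ligands, and Dkk1, Dkk2 and Dkk4 bind Lrp5 and Lrp6. The pathway is known in the ovary from gonad development, in which Wnt4 and Rspo1 act, and from the surface epithelium, where Lgr5 marks progenitors.

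Library totals were 17905397 to 19934278 counts for the samples labelled IL6 shRNA1 and 18224751 to 22682346 for control. Il6 (chromosome 5, 30013114 to 30019981), the gene targeted by the shRNA, had 20, 37, 40, 37 and 33 counts in libraries 1 to 5 labelled IL6 shRNA1 and 38, 9, 48, 26 and 14 counts in control libraries 1 to 5. The groups overlapped and Il6 was not called (log2 fold change 0.44 ± 0.36 SE, adjusted p = 0.44 by edgeR's quasi-likelihood test), so the groups are called by their labels and each direction below is that of the label, not of a measured loss of Il6. Markers of other cells were present. Of 25 leukocyte markers, 21 were tested, of which 11 were higher and the other 10 were not called. All 25 came to 3222 to 6352 summed CPM in the libraries labelled IL6 shRNA1 and 1215 to 3367 in control. The 12 fibroblast and pericyte markers, all tested, came to 1402 to 2417 summed CPM in the libraries labelled IL6 shRNA1 and 2236 to 2972 in control. Of these 12, Dcn and Lum were lower and the other 10 were not called. The 8 skeletal muscle markers came to 50.9 to 9329 summed CPM in the libraries labelled IL6 shRNA1 and 20.7 to 1046 in control, with overlapping groups. Of 12 markers set for a Mullerian or mesothelial tumour, 11 were tested, of which 2 (Upk3b and Upk1b) were higher and 9 not called. The median log2 fold change of the 11 was 0.56. The 12 came to 529 to 639 summed CPM in the libraries labelled IL6 shRNA1 and 207 to 525 in control, without overlap, and the part of this difference in the values below was not tested. Among them Wt1 averaged 83.0 ± 13.1 CPM in the libraries labelled IL6 shRNA1 and 90.5 ± 22.8 CPM in control (SD, n = 5 each), whereas Pax8 was at or near 0 in all libraries. CPM are counts scaled to a common library size by TMM, and FPKM, used to compare levels between genes, are also divided by the length of the gene model. Coordinates are those of the deposited table on build GRCm38. In bulk RNA, fewer cells of a type and less RNA per cell cannot be told apart.

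Of the 46 genes, 30 had enough counts to be tested. In the libraries labelled IL6 shRNA1, 2 were higher (Wnt2b and Fzd7), 8 were lower (Wnt16, Wnt5a, Fzd2, Fzd3, Fzd6, Lgr4, Sfrp1 and Dkk2) and 20 were not called at an adjusted p under 0.05 by edgeR's quasi-likelihood test over all genes. Among all 15064 genes tested, 11.8% were called, 5.62% higher and 6.16% lower. The shares of the 30 were 33.3% called, 6.67% higher and 26.7% lower, a description of those with enough counts and not of the 46. Their median log2 fold change was -0.15, beside -0.01 over all genes tested. For 7 of the 30 the groups were fully separate in CPM, beside 10.9% of all genes tested. These 7 were Wnt16, Wnt5a, Wnt2b, Fzd6, Lgr4 and Sfrp1, with Fzd5, which was not called. The list depends on the unit: in FPKM Sfrp1 overlapped, while Fzd2, Fzd3, Fzd7 and Dkk2 were separate. The call for 4 of the 10 (Wnt5a, Wnt2b, Fzd6 and Lgr4) was kept in each of the 10 fits that omitted a single library.

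The chromosomes on which some of these genes lie differed between the groups as a whole. Of 917 tested genes on chromosome 1, 29.2% were higher and 0.109% lower (median log2 fold change 0.32), and of 797 on chromosome 6, 27.1% were lower and 2.63% higher (median -0.23). Medians of the other 18 chromosomes with at least 100 tested genes ran from -0.12 to 0.02. Of the tested genes, Fzd7, Fzd5 and Lgr6 lie on chromosome 1, and Wnt16, Wnt5b and Wnt2 on chromosome 6. Away from these 2 chromosomes 24 of the genes were tested, of which 1 was higher and 7 were lower, beside 4.18% higher and 5.33% lower among all 13350 genes tested there. The part of chromosome-wide shifts in the values of Fzd7 and Wnt16 was not tested.

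Single libraries moved these counts, and the calls over the whole table moved as well. With all libraries 1775 genes were called over the table. Omitting IL6 shRNA1 library 2, 3, 4 or 5 left 869, 1024, 1154 or 989, and omitting control library 2 or 5 left 875 or 864. Without IL6 shRNA1 library 1 there were 2774, and without control library 1, 3 or 4 there were 1881, 1312 or 1526. The count of 8 lower genes became 4 when IL6 shRNA1 library 2, 4 or 5 or control library 2 was omitted, 3 when IL6 shRNA1 library 3 was, and 5 when control library 5 was. It became 9 without IL6 shRNA1 library 1 and 6 without control library 3, and stayed at 8 without control library 1 or 4. The count of 2 higher genes became 1 without IL6 shRNA1 libraries 1, 2 or 5 or control libraries 2, 3, 4 or 5, and 3 without IL6 shRNA1 library 4 or control library 1. Without the 3 libraries farthest out on the first principal component (IL6 shRNA1 library 5 and control libraries 2 and 5), edgeR called 0 higher and 1, Sfrp1, lower, against 4 higher and 7 lower at an unadjusted p under 0.05, while 212 genes were called over the whole table. With a leukocyte score added as a covariate, edgeR called 0 of the genes in either direction, against 4 higher and 4 lower at an unadjusted p under 0.05, and 62 genes over the whole table. That score was -0.08 to 0.75 in the libraries labelled IL6 shRNA1 and -1.39 to 0.22 in control, so it shares variance with the group. The score is the mean centred log2 CPM of the 21 tested leukocyte markers. Both fits were added after the data were seen, and their fold changes are given beside each called gene.

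**Figure D1:**
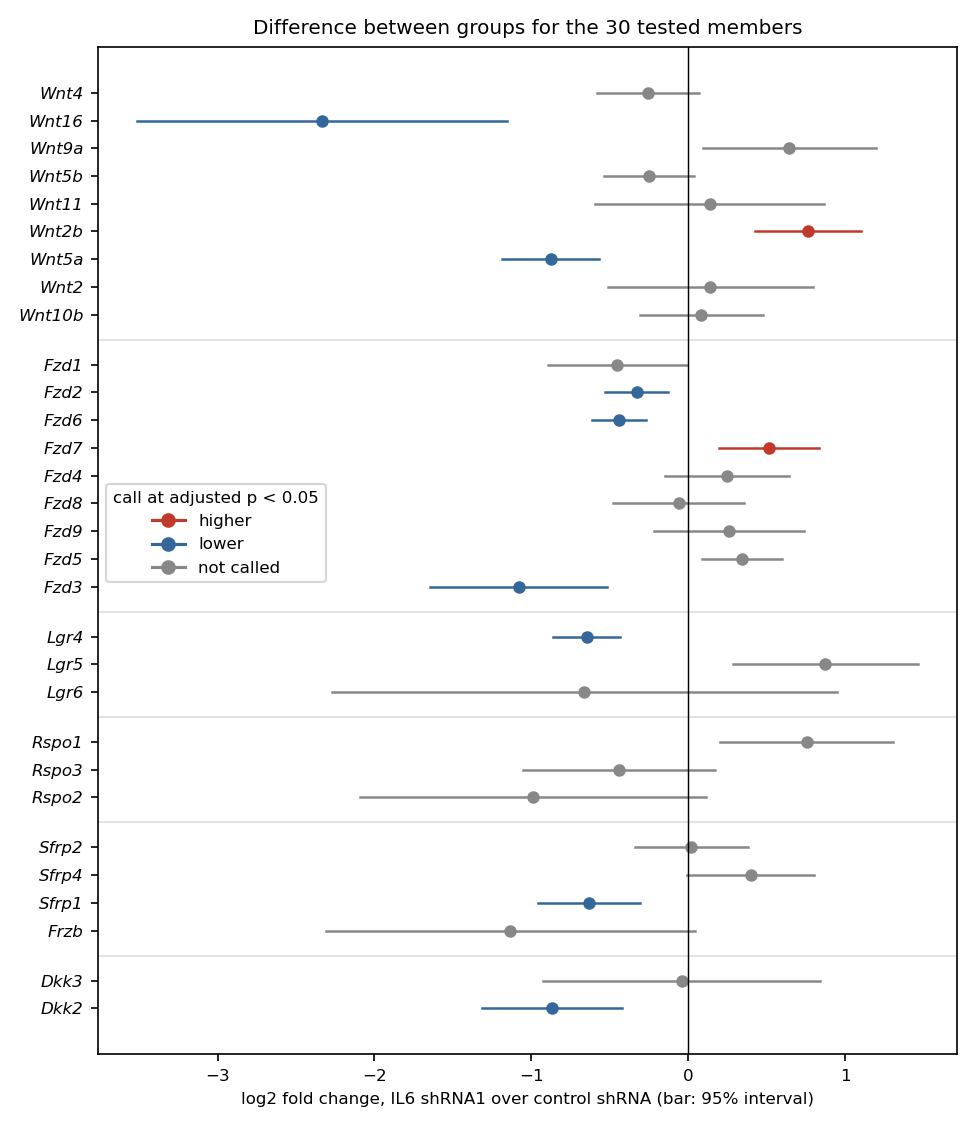
Log2 fold changes of the 30 tested genes, libraries labelled IL6 shRNA1 over control (n = 5 each), by family and then by mean FPKM; bars are 95% intervals and colours mark the call. Wnt16 has the most negative value (-2.33), and intervals lie wholly above 0 for the called Wnt2b and Fzd7 and for Wnt9a, Fzd5, Lgr5 and Rspo1, which were not called.

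Among the ligands, 9 of 19 were tested, of which 1 was higher, 2 were lower and 6 were not called. Per length of gene model, Wnt4, which directs ovary formation in mouse, had rank 1 in the libraries labelled IL6 shRNA1 at 8.50 FPKM and rank 2 in control at 10.1 FPKM. Wnt16, a ligand known from bone and haematopoietic development, had rank 7 at 2.33 FPKM in the libraries labelled IL6 shRNA1 and rank 1 at 11.5 FPKM in control. In control the ranges of Wnt16 and Wnt4 overlapped, so that their order is not set, while Wnt4 was above the next ligand, Wnt5b, in every control library without overlap. In the libraries labelled IL6 shRNA1 the neighbours from Wnt4 down through Wnt9a, Wnt2b and Wnt11 to Wnt5b overlapped in pairs, and the gap below Wnt5b, to Wnt5a, did not overlap. The share of Wnt16 in summed ligand FPKM was 6.88% ± 3.46 in the libraries labelled IL6 shRNA1 and 25.7% ± 15.6 in control (SD, n = 5 each). That of Wnt9a was 16.7% ± 3.26 in the libraries labelled IL6 shRNA1 and 8.79% ± 4.09 in control, and that of Wnt2b was 14.03% ± 1.21 in the libraries labelled IL6 shRNA1 and 6.77% ± 1.97 in control. The sum itself was 34.8 ± 4.07 FPKM in the libraries labelled IL6 shRNA1 and 43.2 ± 3.54 in control.

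**Figure D2:**
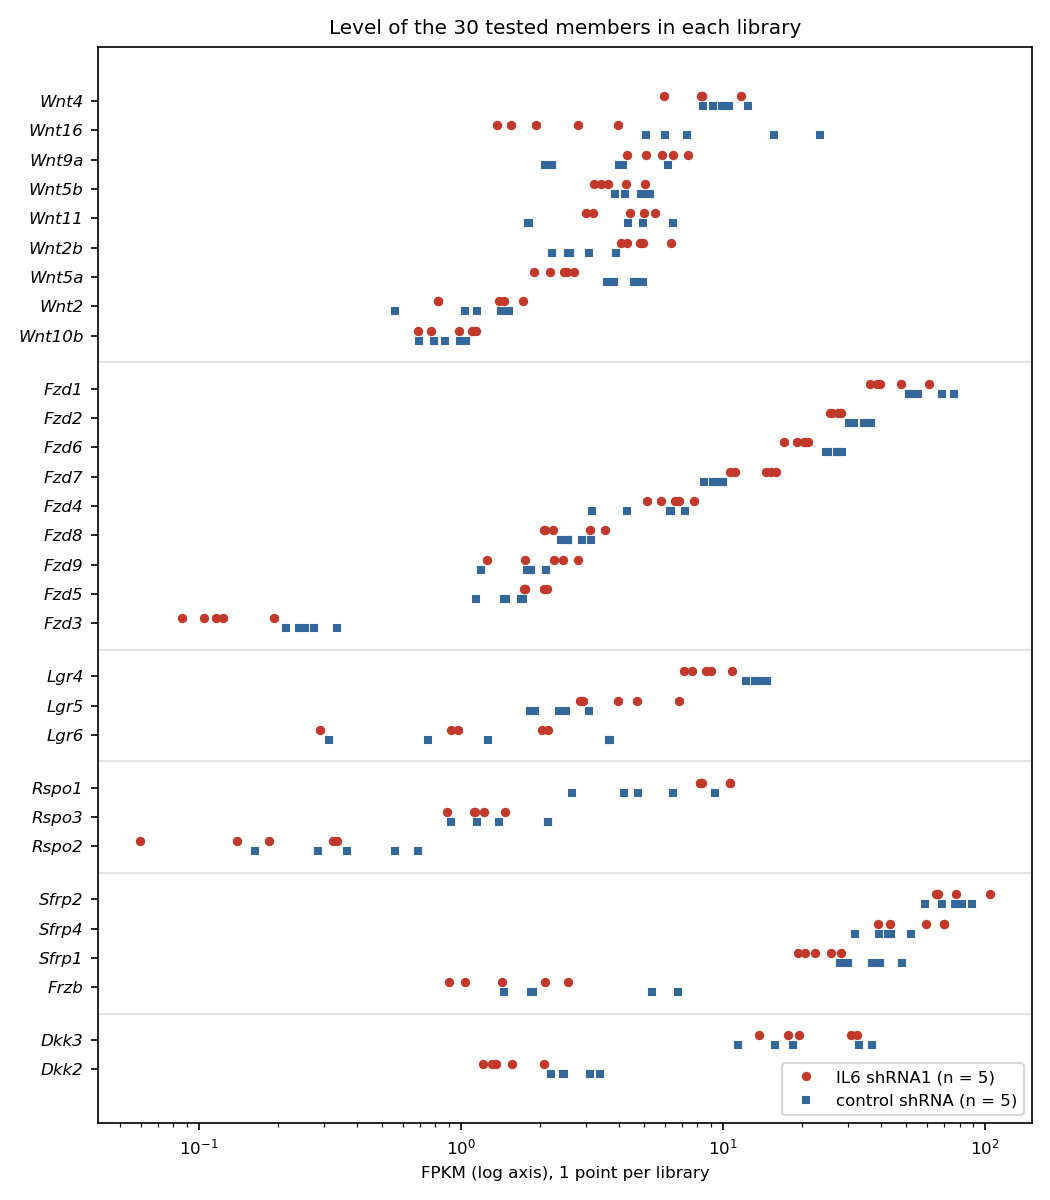
FPKM of the 30 tested genes in each library on a log axis, by family; circles are libraries labelled IL6 shRNA1, drawn above squares for control. Sfrp2, Fzd1 and Sfrp4 are the most abundant, and Wnt16 and Lgr4 are among the genes that separate the groups.

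Wnt16 (chromosome 6, 22288227 to 22298522) had 18.3, 12.1, 5.84, 6.47 and 8.68 CPM in libraries 1 to 5 labelled IL6 shRNA1, against 30.6, 72.1, 24.6, 21.9 and 110.4 CPM in control libraries 1 to 5. All 5 control libraries were above all 5 others, and control libraries 2 and 5 were far above the other controls. It fell to 0.198 of the control level (10.3 ± 5.12 CPM in the libraries labelled IL6 shRNA1 and 51.9 ± 38.5 CPM in control; SD over n = 5 per group; log2 fold change -2.33 ± 0.53 SE, adjusted p = 0.023). The call was lost without IL6 shRNA1 library 3, 4 or 5 or control library 2 (adjusted p = 0.052 to 0.055), and with no filter on low counts (adjusted p = 0.068). The log2 fold change was -1.27 without the 3 farthest libraries (adjusted p = 0.15) and -1.12 with the leukocyte covariate (adjusted p = 0.54). Its promoter is shown as that of the member with the largest difference. RefSeq's table for build GRCm38.p6 held an entry for 31 of the 46 genes, and the 250 bases before the start are given here and below for called genes with an entry whose window lies wholly outside the gene as the deposited table bounds it. Capitals mark matches to any of 3 motifs, searched on both strands: the TCF/LEF letters CTTTGAT or CTTTGTT and the STAT letters TTCNNNGAA, where N is any base. They occur in 3.21%, 5.03% and 7.02% of all 32851 windows of this length. The window of Wnt16 held none, with 9 CpG pairs.
Wnt16 (chr6:22287977-22288226, plus strand): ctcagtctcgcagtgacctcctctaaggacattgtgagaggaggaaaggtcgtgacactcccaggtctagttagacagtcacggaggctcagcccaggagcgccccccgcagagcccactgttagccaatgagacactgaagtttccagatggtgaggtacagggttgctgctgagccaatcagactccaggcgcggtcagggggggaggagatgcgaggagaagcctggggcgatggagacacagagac

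Wnt5a (chromosome 14, 28504750 to 28527448), the prototype of ligands that act without beta-catenin, had 22.3, 14.6, 18.9, 16.3 and 20.5 CPM in libraries 1 to 5 labelled IL6 shRNA1, against 37.2, 38.1, 26.5, 29.6 and 38.7 CPM in control libraries 1 to 5. The groups did not overlap, and the means were 18.5 ± 3.09 CPM in the libraries labelled IL6 shRNA1 and 34.0 ± 5.57 CPM in control (SD over n = 5 per group; log2 fold change -0.88 ± 0.14 SE, adjusted p = 0.0049), with a 95% interval of the log2 fold change from -1.19 to -0.57. An antisense gene, Gm2670, shares 358 exonic bases with Wnt5a, and the strand setting of the counting is not given in the sources used here, so reads of the pair cannot be told apart. Without the 3 farthest libraries the log2 fold change was -0.79 (adjusted p = 0.061), and with the leukocyte covariate -0.70 (adjusted p = 0.14).

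Wnt2b (chromosome 3, 104945272 to 104961921), a ligand of the beta-catenin branch, was the one ligand called higher. It had 21.3, 20.5, 26.0, 17.2 and 17.8 CPM in libraries 1 to 5 labelled IL6 shRNA1, against 12.5, 11.5, 10.1, 16.2 and 10.1 CPM in control libraries 1 to 5. The groups did not overlap, although the lowest library labelled IL6 shRNA1 and control library 4 lay close together. The means were 20.6 ± 3.51 CPM in the libraries labelled IL6 shRNA1 and 12.1 ± 2.50 CPM in control (SD over n = 5 per group; log2 fold change 0.77 ± 0.15 SE, adjusted p = 0.013). The log2 fold change was 0.72 without the 3 farthest libraries (adjusted p = 0.11) and 0.76 with the leukocyte covariate (adjusted p = 0.20).

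The other tested ligands were not called. Wnt4 (chromosome 4, 137277489 to 137299726) had 36.3, 34.3, 47.9, 33.3 and 25.7 CPM in libraries 1 to 5 labelled IL6 shRNA1, against 42.5, 43.8, 49.3, 34.7 and 41.6 CPM in control libraries 1 to 5. Its groups overlapped widely (log2 fold change -0.26 ± 0.15 SE, adjusted p = 0.26; 95% interval -0.58 to 0.067). Wnt9a (chromosome 11, 59306928 to 59333552), a ligand of the beta-catenin branch known from joint formation, had 15.1, 16.7, 21.0, 23.3 and 20.1 CPM in libraries 1 to 5 labelled IL6 shRNA1, against 19.8, 7.84, 12.6, 13.6 and 7.53 CPM in control libraries 1 to 5. Control library 1 lay within the range of the other group and the other 4 controls lay below it (log2 fold change 0.64 ± 0.25 SE, adjusted p = 0.11). Without control library 1 Wnt9a was called (log2 fold change 0.90, adjusted p = 0.025), whereas the log2 fold change was 0.31 without the 3 farthest libraries and 0.0081 with the leukocyte covariate. Wnt11 averaged 17.3 ± 3.91 CPM in the libraries labelled IL6 shRNA1 and 15.8 ± 7.83 CPM in control (SD, n = 5 each). Wnt5b averaged 10.4 ± 1.72 CPM in the libraries labelled IL6 shRNA1 and 12.3 ± 1.39 CPM in control. Control libraries 2 and 5 had the lowest Wnt11 values of all 10, 7.94 and 8.07 CPM. Wnt2 and Wnt10b were at or below 4.12 and 3.70 CPM in every library, with overlapping groups.

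**Figure D3:**
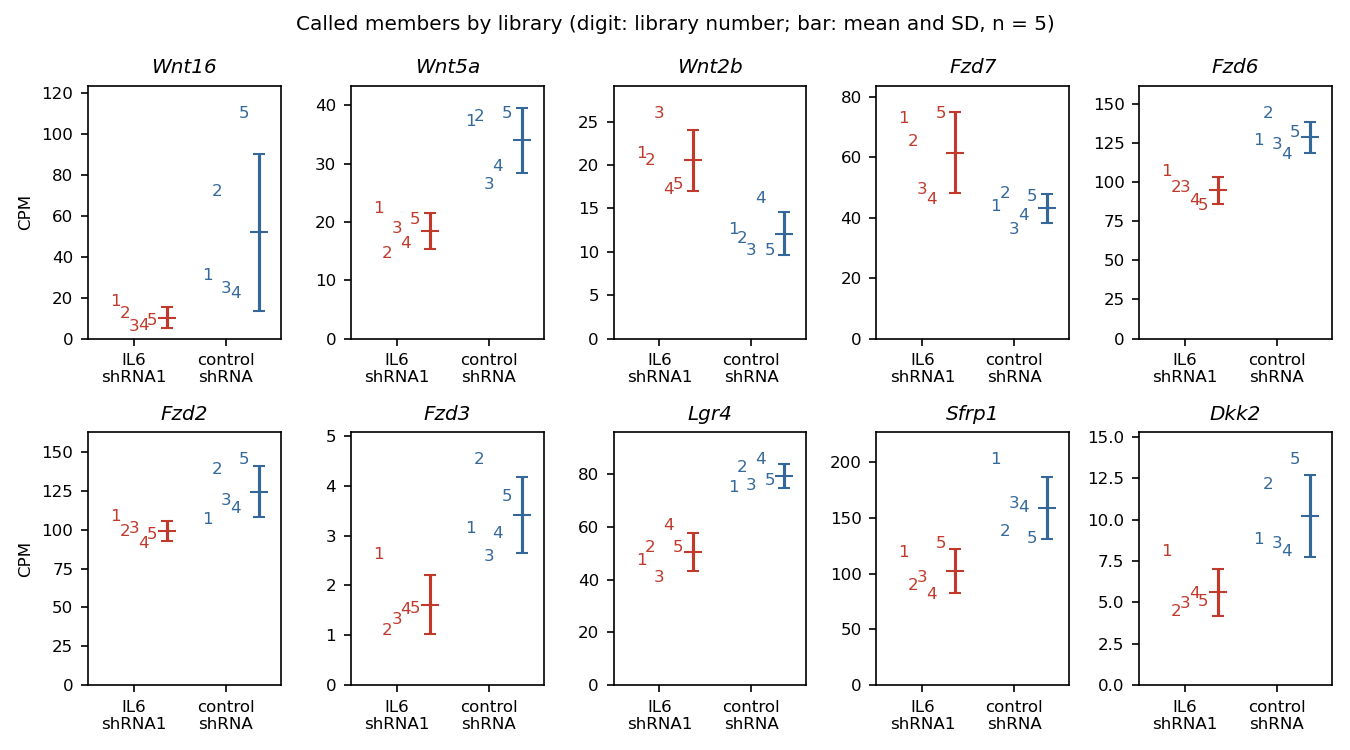
CPM of the 10 called genes in each library (digits are library numbers, libraries labelled IL6 shRNA1 left of control); bars give mean and SD, n = 5. Control libraries 2 and 5 carry the 2 highest Wnt16 values (72.1 and 110.4 CPM), and Lgr4, Fzd6, Wnt5a, Wnt2b, Sfrp1 and Wnt16 show no overlap.

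Of the 10 Frizzled receptors, the membrane receptors that bind Wnt proteins through a cysteine-rich domain, 9 were tested, of which 1 was higher, 3 were lower and 5 were not called. The order of levels was the same in both groups: Fzd1, Fzd2, Fzd6, Fzd7, Fzd4, Fzd8, Fzd9, Fzd5 and Fzd3. From Fzd1 down to Fzd8 no pair of neighbours overlapped in either group, whereas Fzd8 and Fzd9 overlapped in the libraries labelled IL6 shRNA1 and Fzd9 and Fzd5 in both groups. Fzd1 was at 44.8 ± 10.2 FPKM in the libraries labelled IL6 shRNA1 and 60.9 ± 10.95 FPKM in control, Fzd4 in the middle at 6.42 ± 0.997 FPKM in the libraries labelled IL6 shRNA1 and 5.45 ± 1.64 FPKM in control (SD, n = 5 each). The share of Fzd1 in summed Frizzled FPKM was 37.5% ± 4.37 in the libraries labelled IL6 shRNA1 and 42.5% ± 4.16 in control. That of Fzd7 was 11.4% ± 1.41 in the libraries labelled IL6 shRNA1 and 6.65% ± 0.524 in control (SD, n = 5 each). The shares of Fzd7 did not overlap, at 9.97% to 12.9% in the libraries labelled IL6 shRNA1 and 6.11% to 7.40% in control. Summed Frizzled FPKM was 118 ± 12.5 FPKM in the libraries labelled IL6 shRNA1 and 142 ± 11.8 in control, with overlapping ranges.

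Fzd6 (chromosome 15, 39006034 to 39038188), known from planar polarity of hair and skin, had 107, 96.7, 96.7, 88.3 and 85.3 CPM in libraries 1 to 5 labelled IL6 shRNA1, against 127, 144, 124, 118 and 132 CPM in control libraries 1 to 5. All controls were above all other libraries, with means of 94.9 ± 8.58 CPM in the libraries labelled IL6 shRNA1 and 129 ± 9.97 CPM in control (SD over n = 5 per group; log2 fold change -0.44 ± 0.078 SE, adjusted p = 0.0074). It shares 152 exonic bases with Gm26704, a noncoding gene on the opposite strand. Without the 3 farthest libraries its log2 fold change was -0.34 (adjusted p = 0.095), and with the leukocyte covariate -0.29 (adjusted p = 0.26).

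Fzd2 (chromosome 11, 102604396 to 102608058), a receptor for Wnt5a among others, had 109, 98.9, 100.5, 90.98 and 96.7 CPM in libraries 1 to 5 labelled IL6 shRNA1, against 107, 139, 119, 114 and 145 CPM in control libraries 1 to 5. Control library 1 lay below IL6 shRNA1 library 1, and the other controls lay above all libraries labelled IL6 shRNA1. The difference was small (log2 fold change -0.33 ± 0.092 SE, adjusted p = 0.042). The call was lost without IL6 shRNA1 library 2, 3, 4 or 5 or control library 2, 3 or 5 (adjusted p = 0.060 to 0.10), and with no filter on low counts (adjusted p = 0.052). Its log2 fold change was -0.18 without the 3 farthest libraries (adjusted p = 0.34) and -0.11 with the leukocyte covariate (adjusted p = 0.78).

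Fzd3 (chromosome 14, 65192449 to 65262463), which guides axons and acts in planar polarity, had 2.62, 1.09, 1.31, 1.51 and 1.53 CPM in libraries 1 to 5 labelled IL6 shRNA1, against 3.14, 4.53, 2.58, 3.05 and 3.80 CPM in control libraries 1 to 5. IL6 shRNA1 library 1 lay just above the lowest control, and the other 4 lay below all controls. It was the lowest tested Frizzled (0.125 ± 0.0412 FPKM in the libraries labelled IL6 shRNA1 and 0.264 ± 0.0456 FPKM in control) and fell by 1.08 ± 0.26 on the log2 scale (SE; adjusted p = 0.024), on 22 to 93 counts per library. The call was lost without IL6 shRNA1 library 2, 3, 4 or 5 or control library 2 or 5 (adjusted p = 0.053 to 0.062). The log2 fold change was -0.84 without the 3 farthest libraries (adjusted p = 0.23) and -0.55 with the leukocyte covariate (adjusted p = 0.50).

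Fzd7 (chromosome 1, 59482424 to 59486955), a beta-catenin branch receptor of stem cells, had 72.8, 65.2, 49.2, 46.0 and 74.6 CPM in libraries 1 to 5 labelled IL6 shRNA1, against 43.6, 48.0, 35.9, 40.9 and 46.9 CPM in control libraries 1 to 5. IL6 shRNA1 libraries 1, 2, 3 and 5 were above all controls, and library 4 lay below control libraries 2 and 5. It rose 1.43-fold (log2 fold change 0.52 ± 0.14 SE, adjusted p = 0.043). The median of chromosome 1, on which it lies, was 0.32. The call was lost without IL6 shRNA1 library 1, 2 or 5 or control library 1, 2, 3, 4 or 5 (adjusted p = 0.059 to 0.092), and under limma voom (adjusted p = 0.0504). The log2 fold change was 0.54 without the 3 farthest libraries (adjusted p = 0.16) and 0.69 with the leukocyte covariate (adjusted p = 0.18). The window before its RefSeq start held 1 of the 3 motifs, CTTTGTT on the minus strand, and is shown for that match. It ends at 59482146, whereas the deposited gene starts at 59482424. The bases just after the window were not found in a GENCODE M21 transcript of Fzd7. A match of letters is not a binding site.
Fzd7 (chr1:59481897-59482146, plus strand): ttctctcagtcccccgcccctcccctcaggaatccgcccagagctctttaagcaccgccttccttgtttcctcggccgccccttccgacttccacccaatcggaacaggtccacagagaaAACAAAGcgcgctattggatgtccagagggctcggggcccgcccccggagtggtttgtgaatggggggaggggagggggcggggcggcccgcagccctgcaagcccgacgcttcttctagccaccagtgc

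Among Frizzled genes not called, Fzd1 (chromosome 5, 4753839 to 4758035), the most abundant, had 271, 160.1, 163, 146 and 208 CPM in libraries 1 to 5 labelled IL6 shRNA1, against 224, 304, 203, 219 and 346 CPM in control libraries 1 to 5. The groups overlapped, with IL6 shRNA1 libraries 1 and 5 among the controls (log2 fold change -0.45 ± 0.20 SE, adjusted p = 0.15). Without IL6 shRNA1 library 1, Fzd1 was called lower (log2 fold change -0.60, adjusted p = 0.045), and with the leukocyte covariate the log2 fold change was -0.0065. Fzd5 (chromosome 1, 64730558 to 64737751), also on chromosome 1, had 12.8, 14.2, 11.9, 11.5 and 15.3 CPM in libraries 1 to 5 labelled IL6 shRNA1, against 9.93, 10.6, 11.3, 11.5 and 8.54 CPM in control libraries 1 to 5. The groups did not overlap, by a margin under 0.01 CPM, and the gene was not called by edgeR (log2 fold change 0.34 ± 0.12 SE, adjusted p = 0.078), but was by DESeq2 (adjusted p = 0.040). It shares 1233 exonic bases with the opposite-strand model Gm38058. Fzd4, the Norrin receptor of vessels, averaged 43.1 ± 6.81 CPM in the libraries labelled IL6 shRNA1 and 36.3 ± 9.53 CPM in control (SD over n = 5 per group; log2 fold change 0.25 ± 0.18 SE, adjusted p = 0.38). Fzd8 averaged 15.7 ± 4.62 CPM in the libraries labelled IL6 shRNA1 and 16.4 ± 2.78 CPM in control (adjusted p = 0.86). Fzd9 averaged 4.82 ± 1.40 CPM in the libraries labelled IL6 shRNA1 and 4.02 ± 0.632 CPM in control (adjusted p = 0.44).

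The 3 Lgr receptors for R-spondins were all tested, and 1 was lower. Lgr4 (chromosome 2, 109917647 to 110014257) had 47.4, 52.3, 40.7, 60.6 and 52.2 CPM in libraries 1 to 5 labelled IL6 shRNA1, against 75.1, 82.5, 75.6, 85.7 and 77.8 CPM in control libraries 1 to 5. The groups were apart by more than either group's SD. It fell to 0.638 of control (50.6 ± 7.29 CPM in the libraries labelled IL6 shRNA1 and 79.3 ± 4.58 CPM in control; SD over n = 5 per group; log2 fold change -0.65 ± 0.10 SE, adjusted p = 0.0036), which was the smallest adjusted p among the 46. The log2 fold change was -0.65 without the 3 farthest libraries (adjusted p = 0.053) and -0.59 with the leukocyte covariate (adjusted p = 0.10). Its promoter window, shown because the call held in every single-library omission, held none of the 3 motifs and 10 CpG pairs.
Lgr4 (chr2:109917397-109917646, plus strand): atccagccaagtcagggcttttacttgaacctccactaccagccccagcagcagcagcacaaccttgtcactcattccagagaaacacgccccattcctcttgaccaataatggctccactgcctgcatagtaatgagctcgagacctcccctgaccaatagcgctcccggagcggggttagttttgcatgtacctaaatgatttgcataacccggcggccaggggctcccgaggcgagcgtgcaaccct

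Lgr5 (chromosome 10, 115450311 to 115587780), known as a stem cell marker and a beta-catenin target, had 73.6, 40.3, 29.3, 27.9 and 49.96 CPM in libraries 1 to 5 labelled IL6 shRNA1, against 30.3, 19.9, 18.5, 25.4 and 26.4 CPM in control libraries 1 to 5. Libraries 1, 2 and 5 labelled IL6 shRNA1 were above all controls, and library 1 was the highest of all. The gene was not called (log2 fold change 0.87 ± 0.27 SE, adjusted p = 0.059; 95% interval 0.28 to 1.46), but was called without IL6 shRNA1 library 4 (adjusted p = 0.042) and by DESeq2 (adjusted p = 0.0069). With the leukocyte covariate its log2 fold change was 0.99 (adjusted p = 0.36), and without the 3 farthest libraries 0.79 (adjusted p = 0.34). Lgr6 (chromosome 1, 134983301 to 135105276), known from hair follicle stem cells, had 7.05, 13.7, 14.4, 1.90 and 6.51 CPM in libraries 1 to 5 labelled IL6 shRNA1, against 4.92, 26.6, 8.20, 2.12 and 27.3 CPM in control libraries 1 to 5. Control libraries 2 and 5 were the 2 highest and IL6 shRNA1 library 4 and control library 4 the lowest (log2 fold change -0.66 ± 0.72 SE, adjusted p = 0.57). Without the 3 farthest libraries the Lgr6 log2 fold change was 0.86, and with the leukocyte covariate 0.77, both opposite in sign. The share of Lgr4 in summed Lgr FPKM was 61.1% ± 10.1 in the libraries labelled IL6 shRNA1 and 76.0% ± 7.14 in control. That of Lgr5 was 29.6% ± 9.33 in the libraries labelled IL6 shRNA1 and 13.3% ± 3.12 in control (SD, n = 5 each).

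Of the R-spondins, the Lgr ligands, 3 of 4 were tested and 0 were called by edgeR (1, Rspo1, at an unadjusted p under 0.05, and 1, again Rspo1, by DESeq2 and by limma voom). Rspo1 (chromosome 4, 124986430 to 125009099), which acts with Wnt4 in ovary formation, had 17.05, 15.6, 20.1, 19.7 and 16.4 CPM in libraries 1 to 5 labelled IL6 shRNA1, against 17.4, 9.64, 11.8, 8.02 and 5.58 CPM in control libraries 1 to 5. Control library 1 lay inside the range of the libraries labelled IL6 shRNA1 and the other 4 controls lay below it (log2 fold change 0.75 ± 0.25 SE, adjusted p = 0.072; 95% interval 0.20 to 1.30). Without control library 1 it was called (log2 fold change 1.03, adjusted p = 0.013). Its log2 fold change was 0.54 without the 3 farthest libraries (adjusted p = 0.30) and 0.36 with the leukocyte covariate (adjusted p = 0.72). Rspo3 (chromosome 10, 29452416 to 29535867), a vascular and stromal R-spondin, had 3.69, 3.41, 2.68, 4.33 and 3.92 CPM in libraries 1 to 5 labelled IL6 shRNA1, against 4.16, 7.01, 2.66, 3.52 and 7.18 CPM in control libraries 1 to 5. Control libraries 2 and 5 were the 2 highest (log2 fold change -0.44 ± 0.28 SE, adjusted p = 0.31). Rspo2 averaged 1.08 ± 0.633 CPM in the libraries labelled IL6 shRNA1 and 2.16 ± 1.22 CPM in control on 6 to 64 counts per library, again with control libraries 2 and 5 highest. The share of Rspo1 in summed R-spondin FPKM was 86.7% ± 2.54 in the libraries labelled IL6 shRNA1 and 71.2% ± 15.3 in control (SD, n = 5 each).

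Secreted Frizzled-related proteins had the highest mean of the families per length, at 157 ± 11.9 summed FPKM in the libraries labelled IL6 shRNA1 and 157 ± 9.71 in control (SD, n = 5 each). In control their range overlapped that of the Frizzled receptors, which were higher in control library 5 (157 against 146 summed FPKM). Of the Sfrps, 4 of 5 were tested with 1 lower. Sfrp1 (chromosome 8, 23411502 to 23449632), a Wnt-binding antagonist, had 119, 88.9, 96.4, 80.8 and 127 CPM in libraries 1 to 5 labelled IL6 shRNA1, against 202, 138, 163, 159 and 132 CPM in control libraries 1 to 5. In CPM all controls were above all libraries labelled IL6 shRNA1, although IL6 shRNA1 library 5 and control library 5 were close. In FPKM Sfrp1 overlapped, at 28.1 in IL6 shRNA1 library 5 and 27.9 in control library 5. It fell to 0.644 of control (102 ± 19.8 CPM in the libraries labelled IL6 shRNA1 and 159 ± 27.8 CPM in control; SD over n = 5 per group; log2 fold change -0.63 ± 0.15 SE, adjusted p = 0.023). The call was lost without IL6 shRNA1 library 2, 3 or 4 or control library 3 (adjusted p = 0.0502 to 0.067), but kept without the 3 farthest libraries (log2 fold change -0.86, adjusted p = 0.031). With the leukocyte covariate the log2 fold change was -0.83 (adjusted p = 0.095).

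Sfrp2 (chromosome 3, 83766321 to 83774316), an abundant product of fibroblasts, had 236, 138, 139.7, 134.3 and 173 CPM in libraries 1 to 5 labelled IL6 shRNA1, against 184, 185, 139, 164 and 137 CPM in control libraries 1 to 5. The groups overlapped and IL6 shRNA1 library 1 was the highest (log2 fold change 0.02 ± 0.16 SE, adjusted p = 0.95; 95% interval -0.34 to 0.38). It shares 347 exonic bases with the antisense gene Gm26771. Sfrp4 (chromosome 13, 19623104 to 19632994), known from stroma and bone, had 192, 245, 286, 277 and 169 CPM in libraries 1 to 5 labelled IL6 shRNA1, against 128, 188, 155, 180.5 and 235 CPM in control libraries 1 to 5. The groups overlapped (log2 fold change 0.40 ± 0.18 SE, adjusted p = 0.17; 95% interval -0.0063 to 0.80). Frzb, also called Sfrp3, averaged 5.27 ± 2.52 CPM in the libraries labelled IL6 shRNA1 and 11.6 ± 8.73 CPM in control (log2 fold change -1.13 ± 0.53 SE, adjusted p = 0.17), and control libraries 2 and 5 held 18.3 and 23.5 CPM against at most 5.86 CPM in the other controls. The share of Sfrp1 in summed Sfrp FPKM was 14.9% ± 2.50 in the libraries labelled IL6 shRNA1 and 23.1% ± 4.24 in control (SD, n = 5 each). Of the 12 fibroblast and pericyte markers, Dcn and Lum were lower and the other 10 were not called (median log2 fold change of the 12, -0.17). Dcn averaged 511 ± 94.3 CPM in the libraries labelled IL6 shRNA1 and 783 ± 111 CPM in control. Lum averaged 441 ± 126 CPM in the libraries labelled IL6 shRNA1 and 860.3 ± 122 CPM in control. The part of fibroblasts in the Sfrp1 value was not tested.

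Of the 4 Dickkopf genes, 2 were tested and 1 was lower. Dkk2 (chromosome 3, 132085292 to 132180304), an antagonist at Lrp6 in most settings, had 8.07, 4.45, 4.91, 5.55 and 5.03 CPM in libraries 1 to 5 labelled IL6 shRNA1, against 8.83, 12.1, 8.55, 8.07 and 13.6 CPM in control libraries 1 to 5. IL6 shRNA1 library 1 was within 0.01 CPM of the lowest control, and the other 4 lay below all controls (log2 fold change -0.87 ± 0.20 SE, adjusted p = 0.023). The call was lost without IL6 shRNA1 library 2, 3 or 5 or control library 2 or 5 (adjusted p = 0.052 to 0.059). With the leukocyte covariate the log2 fold change was -0.41 (adjusted p = 0.53), and without the 3 farthest libraries -0.56 (adjusted p = 0.23). Its promoter window, shown as the remaining one of a lower gene that meets the same limits, held none of the 3 motifs and 7 CpG pairs.
Dkk2 (chr3:132085042-132085291, plus strand): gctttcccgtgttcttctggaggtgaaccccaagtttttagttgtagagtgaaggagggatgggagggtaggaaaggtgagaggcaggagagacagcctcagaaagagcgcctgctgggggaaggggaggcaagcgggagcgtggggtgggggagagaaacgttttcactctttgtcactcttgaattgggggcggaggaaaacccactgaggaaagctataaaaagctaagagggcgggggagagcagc

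Dkk3 (chromosome 7, 112116017 to 112159057), a divergent family member that does not act as a classical Wnt antagonist, had 115, 58.4, 63.9, 43.9 and 106 CPM in libraries 1 to 5 labelled IL6 shRNA1, against 59.7, 117, 49.7, 37.9 and 135 CPM in control libraries 1 to 5. High values stood in both groups, in IL6 shRNA1 libraries 1 and 5 and control libraries 2 and 5 (log2 fold change -0.042 ± 0.40 SE, adjusted p = 0.96; 95% interval -0.93 to 0.84). Per length it was at 22.8 ± 8.31 FPKM in the libraries labelled IL6 shRNA1 and 23.2 ± 11.3 FPKM in control (SD, n = 5 each), above Dkk2 at 1.51 ± 0.340 FPKM in the libraries labelled IL6 shRNA1 and 2.73 ± 0.503 FPKM in control.

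Control libraries 2 and 5, the 2 controls farthest out on the first principal component, stood at one end of the control group for many of these genes. Of the 30 tested genes, 15 were higher in both than in control libraries 1, 3 and 4, among them Wnt16, Lgr6, Frzb, Dkk3, Fzd1 and Rspo3, and 4 were lower in both (Wnt9a, Wnt11, Fzd4 and Sfrp1). Over all genes tested the same held for 23.7% and 19.7%. The same libraries had the 2 lowest sums of leukocyte markers, 1215 and 1995 CPM. Control library 4 was next in order, with a sum of 2030.0 CPM, 21.9 CPM of Wnt16 and 2.12 CPM of Lgr6. For Lgr4 the controls stood at 75.1 to 85.7 CPM, and its call was lost with the leukocyte covariate (log2 fold change -0.59, adjusted p = 0.10 by edgeR). The part of leukocytes in the Wnt16, Lgr6, Frzb and Lgr4 values was not tested beyond the covariate fit.

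**Figure D4:**
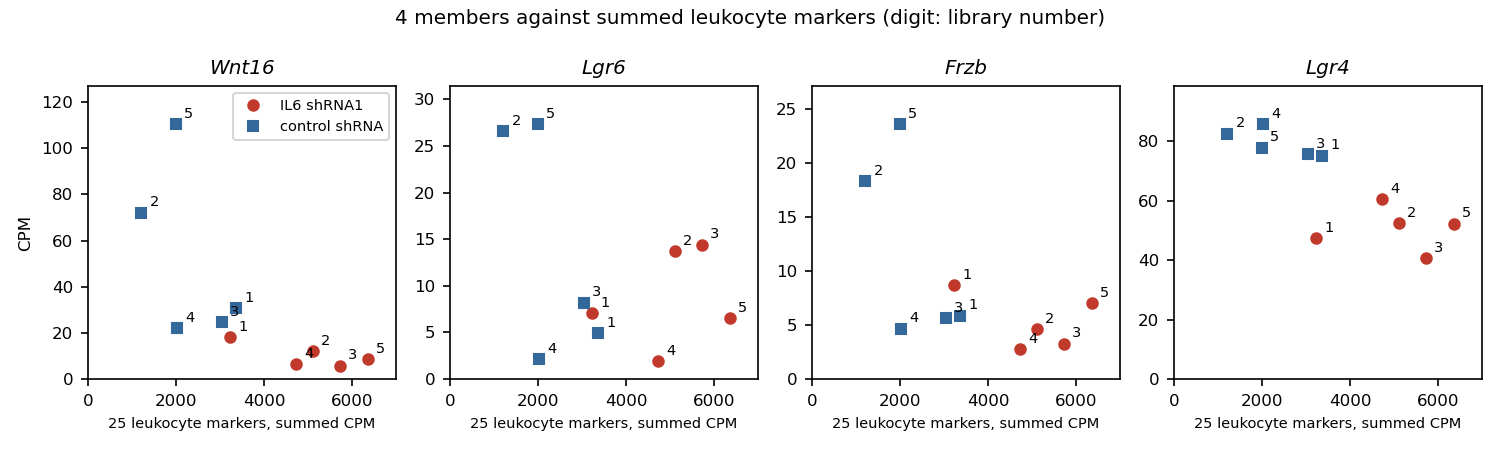
CPM of Wnt16, Lgr6, Frzb and Lgr4 against the summed CPM of 25 leukocyte markers, 1 point per library (digits are library numbers). Control libraries 2 and 5 stand high for the first 3 genes, while Lgr4 lies lower in all 5 libraries labelled IL6 shRNA1.

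The 16 genes that were not tested were at or near 0. Wnt3a, Wnt7a, Wnt8a and Dkk4 had 0 counts in all 10 libraries, which allows up to 0.015 CPM over the 200137713 counts of all libraries (3 counts, for counting error only). Dkk1, the best known Dickkopf, had 1 count in all, and Wnt8b, Rspo4 and Wnt9b had up to 2 counts in any library. Wnt1, Wnt6 and Sfrp5 had at most 3, 14 and 9 counts in a library. Another 5 genes stood out in IL6 shRNA1 library 5. Wnt10a had 3, 1, 2, 0 and 32 counts in libraries 1 to 5 labelled IL6 shRNA1, against 2, 0, 1, 0 and 0 counts in control libraries 1 to 5. Wnt3 had 1, 0, 1, 1 and 19 counts in libraries 1 to 5 labelled IL6 shRNA1, against 1, 0, 0, 0 and 0 counts in control libraries 1 to 5. Both ligands are known from skin and hair follicle.

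Wnt7b, another ligand known from hair follicle and other epithelia, had 3, 5, 5, 9 and 26 counts in libraries 1 to 5 labelled IL6 shRNA1, against 2, 1, 0, 8 and 3 counts in control libraries 1 to 5, and it shares 324 exonic bases with the antisense gene AU022754. Fzd10 had 6, 0, 0, 1 and 30 counts in libraries 1 to 5 labelled IL6 shRNA1, against 1, 0, 3, 0 and 0 counts in control libraries 1 to 5. Wif1, a secreted Wnt inhibitor, had 10, 4, 8, 12 and 55 counts in libraries 1 to 5 labelled IL6 shRNA1, against 23, 0, 12, 2 and 0 counts in control libraries 1 to 5. In each of the 5 genes library 5 labelled IL6 shRNA1 was the highest of all 10. That library also had the highest sum of 6 skin epithelium markers, 953 CPM, against 86.4 to 116 CPM in the other 4 of its group and 18.03 to 103 CPM in control. It had the highest sum of skeletal muscle markers too, 9329 CPM. The basal keratin gene Krt5 stood at 209 CPM in library 5, at 21.3 CPM in library 1, and at 0 in IL6 shRNA1 library 4 and control library 3. The summed skin markers still came to 97.5 CPM in IL6 shRNA1 library 4 and 40.5 CPM in control library 3. Other markers of the list thus carried counts where Krt5 had none. Krt1 stood at 163 CPM in library 5 and at 0 in 7 of the other 9 libraries. The part of skin cells in these 5 genes was not tested.

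**Figure D5:**
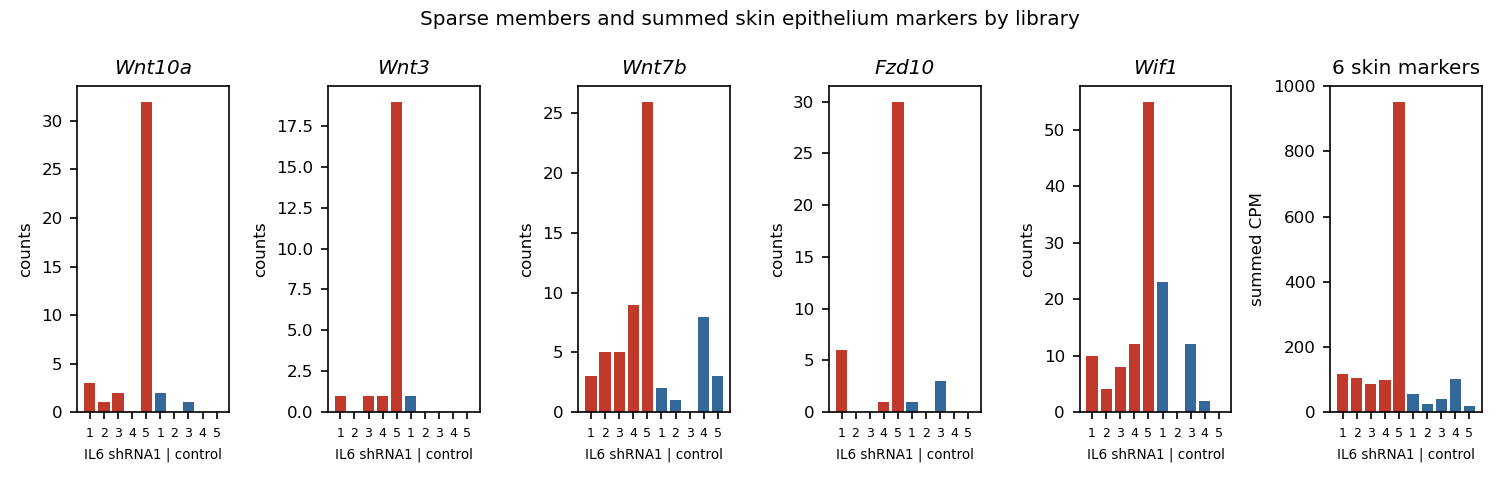
Counts of 5 sparse genes and the summed CPM of 6 skin epithelium markers in each library, libraries labelled IL6 shRNA1 left of control. IL6 shRNA1 library 5 is the highest bar in each panel, with 32 counts of Wnt10a and 55 of Wif1.

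Other genes of the pathway were taken from lists by role. Of 79 listed genes, 78 were found and 67 tested, of which 4 were higher, 11 lower and 52 not called (median log2 fold change -0.14), beside 5.62% higher and 6.16% lower of all genes tested. In the single-library omissions 2 to 6 were higher and 4 to 17 lower, with 17, 5, 6, 5 and 7 lower when IL6 shRNA1 libraries 1 to 5 were omitted in turn, and 4 lower when control library 2 or 5 was. The higher count became 2 without IL6 shRNA1 library 5 or control library 2. Over the whole table the single-library omissions called 864 to 2774 genes, against 1775 with all libraries. Without the 3 farthest libraries edgeR called 1 higher and 0 lower (12 lower at an unadjusted p under 0.05), and with the leukocyte covariate 1 higher and 0 lower (7 lower at an unadjusted p under 0.05).

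Of the 3 genes of Wnt secretion, 2 were tested, and 0 were called by edgeR or DESeq2 (1 at an unadjusted p under 0.05). Wls, the carrier of Wnt proteins to the surface and the most abundant of the 3, averaged 301 ± 53.1 CPM in the libraries labelled IL6 shRNA1 and 370.1 ± 20.7 CPM in control (SD over n = 5 per group; log2 fold change -0.30 ± 0.11 SE, adjusted p = 0.095). Of 14 co-receptors and other receptors, 12 were tested, and 1 was lower and 11 not called, the lower one being the co-receptor gene Lrp6 on chromosome 6 (133.8 ± 24.5 CPM in the libraries labelled IL6 shRNA1 and 188 ± 29.2 CPM in control; log2 fold change -0.49 ± 0.14 SE, adjusted p = 0.045). Of 12 Dishevelled and destruction complex genes, 11 were tested, of which 4 were lower and 7 not called. The 4 were Apc2, a relative of Apc found mainly in neurons, the kinase gene Gsk3a, the transducer Dvl2 and the ubiquitin ligase subunit Btrc. Apc2 averaged 4.34 ± 1.21 CPM in the libraries labelled IL6 shRNA1 and 9.09 ± 1.19 CPM in control (log2 fold change -1.06 ± 0.20 SE, adjusted p = 0.0090). Gsk3a averaged 57.6 ± 4.37 CPM in the libraries labelled IL6 shRNA1 and 72.6 ± 3.24 CPM in control (log2 fold change -0.33). Dvl2 averaged 33.0 ± 2.63 CPM in the libraries labelled IL6 shRNA1 and 43.2 ± 4.98 CPM in control (log2 fold change -0.39). Btrc averaged 30.2 ± 2.49 CPM in the libraries labelled IL6 shRNA1 and 37.9 ± 2.85 CPM in control (log2 fold change -0.33; SD, n = 5 each). Each of the 4 separated the groups.

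Of 12 nuclear partners of beta-catenin, all tested, 3 were lower and 9 not called. Tcf7l1, a mainly repressive TCF on chromosome 6, averaged 27.4 ± 4.93 CPM in the libraries labelled IL6 shRNA1 and 53.4 ± 12.9 CPM in control (log2 fold change -0.96 ± 0.17 SE, adjusted p = 0.0080). The co-activator Bcl9l averaged 130.4 ± 18.2 CPM in the libraries labelled IL6 shRNA1 and 174 ± 21.9 CPM in control. The co-repressor Tle1 averaged 34.7 ± 1.23 CPM in the libraries labelled IL6 shRNA1 and 42.5 ± 2.98 CPM in control (SD, n = 5 each). Of 11 planar polarity genes, all tested, 0 were called by edgeR, 2 by DESeq2 and 3 at an unadjusted p under 0.05, and the most abundant, Prickle1, averaged 149 ± 34.3 CPM in the libraries labelled IL6 shRNA1 and 162 ± 7.20 CPM in control. Of 12 other secreted or surface modulators, 9 were tested, with 3 higher, 2 lower and 4 not called. Sostdc1, an antagonist of BMP and Wnt signalling, rose to 29.3 ± 5.30 CPM in the libraries labelled IL6 shRNA1 and 5.07 ± 1.52 CPM in control (log2 fold change 2.53 ± 0.20 SE, adjusted p = 0.00019). Igfbp4, an IGF-binding protein that also binds Lrp6, averaged 746 ± 141 CPM in the libraries labelled IL6 shRNA1 and 406 ± 71.4 CPM in control (log2 fold change 0.88 ± 0.15 SE, adjusted p = 0.0071). Ccn4, a matricellular protein first found as a Wnt-induced gene, averaged 147 ± 11.8 CPM in the libraries labelled IL6 shRNA1 and 110.4 ± 15.1 CPM in control (log2 fold change 0.41 ± 0.10 SE, adjusted p = 0.023). Draxin, an axon guidance protein that binds Lrp6, fell (2.28 ± 0.596 CPM in the libraries labelled IL6 shRNA1 and 6.51 ± 3.84 CPM in control; log2 fold change -1.51 ± 0.39 SE, adjusted p = 0.031). Control libraries 2 and 5 held 10.1 and 11.2 CPM of Draxin, against 3.16 to 4.33 CPM in the other controls. The glypican gene Gpc4, named after its values were seen as the other one that fell, averaged 42.2 ± 22.5 CPM in the libraries labelled IL6 shRNA1 and 126 ± 73.9 CPM in control (adjusted p = 0.0498). Its groups overlapped, with IL6 shRNA1 library 1 at 79.2 CPM. Control libraries 2 and 5 held 181 and 228 CPM of Gpc4, against 63.3 to 82.7 CPM in the other controls.

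Of 22 target genes of beta-catenin, 16 were tested, with 2 higher (Ccn4, also counted above, and the cyclin gene Ccnd1), 1 lower (Isl1) and 13 not called. Ccnd1 averaged 64.8 ± 7.02 CPM in the libraries labelled IL6 shRNA1 and 41.8 ± 9.32 CPM in control (log2 fold change 0.63 ± 0.14 SE, adjusted p = 0.020). Isl1, a homeobox gene, averaged 0.467 ± 0.125 CPM in the libraries labelled IL6 shRNA1 and 3.33 ± 2.68 CPM in control (log2 fold change -2.81 ± 0.54 SE, adjusted p = 0.011). Axin2, the most widely used readout of the beta-catenin branch, was named after its values were seen. It had 21.5, 9.88, 7.10, 6.18 and 12.4 CPM in libraries 1 to 5 labelled IL6 shRNA1, against 20.3, 18.2, 18.4, 18.3 and 18.9 CPM in control libraries 1 to 5. The controls were narrow, and IL6 shRNA1 library 1 stood above them while the other 4 lay below them (log2 fold change -0.72 ± 0.29 SE, adjusted p = 0.12).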

How the data were processed

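RNA was sequenced from 10 mouse samples, 5 labelled IL6 shRNA1 and 5 control shRNA, and groups and replicate numbers came from the sample titles. The authors deposited raw counts of reads by gene, whole numbers that are not normalized. The submitters' processing notes name STAR 2.7.0f, featureCounts of Subread 1.6.4, Trim Galore 0.6.6, FastQC 0.11.9, SAMtools 1.11 and R 4.0.4, and give GRCm38 and mm10 as builds. Not given in the sources used here are the strand setting, the annotation used, and how multiply mapped reads were handled. The deposited FPKM table of the authors equals those counts over gene length and column total, to within a relative deviation of 9.4e-07.

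Counts were tested in R 4.3.3 with edgeR 4.0.16 (filterByExpr with a minimum count of 10, TMM factors, robust quasi-likelihood fit of the group alone), which kept 15064 genes. P-values were adjusted by Benjamini-Hochberg over all of them and called under 0.05, and all adjusted p-values are from this test unless another tool is named. The script was also run on simulated counts with the same dispersion for all genes. That run lacks the outlying libraries seen here and does not bear on the calls. DESeq2 1.42.0, limma 3.58.1 (voom, and log2 FPKM with a pseudocount of 1 or 0.1), other size factors and filters, a replicate block, a threshold of 0.01 and leaving out each library were the alternatives. Totals of 17905397 to 22682346 counts left genes with a few counts per library untested, and the 3-count floor covers counting error only.

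Values in each library are given for called genes, for genes whose groups do not overlap, and for the genes with the highest mean FPKM of each family (3 of ligands and receptors, 2 of modulators). Of each pathway list, up to 4 called genes with the smallest p are named, or the most abundant one where none was called. The members and lists were chosen with earlier results of these data known. Tiki1 was not matched by name in the table and is not used here. Antisense overlaps came from GENCODE M21 and promoters from RefSeq (GRCm38.p6).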

Additional observations from a re-analysis of the deposited data

Results flagged for a closer look

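In groups of 5, a library was marked where its gap to the nearest other library exceeded Dixon's 95% limit as a share of the group's range. Of 141 groups examined, 11 were marked. For normally spread values chance marks about 1 in 20, a rate that does not hold for genes with few counts. IL6 shRNA1 library 5 accounts for 9 of the marks. It had 1.59 CPM of Fzd10 (next highest library of its group 0.321), 2.91 CPM of Wif1 (0.584), 1.69 CPM of Wnt10a (0.160), 1.38 CPM of Wnt7b (0.438) and 1.01 CPM of Wnt3 (0.0546). It had 0.106 CPM of Wnt8b, which was at 0 in the other libraries of its group. The same Wif1 value was marked again in FPKM, at 1.16 (next 0.252), and is not a separate result. Its summed skin epithelium markers were 953 CPM (next 116) and its summed skeletal muscle markers 9329 CPM (next 2103). The other marks rest on a single count, with 0.0546 CPM of Dkk1 in IL6 shRNA1 library 3 and 0.0424 CPM of Wnt3 in control library 1. The part of skin or muscle tissue in the values of library 5 was not tested.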

How the results depend on the processing

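Of the Wnt ligand, receptor and modulator genes, 2 were higher and 8 lower, and of the other pathway genes 4 were higher and 11 lower. All 4 counts stayed within 1.5 times under limma voom, the other size factors, both other filters and both FPKM fits. DESeq2 called 5 higher members, adding Fzd5, Lgr5 and Rspo1 (3027 genes called over the table, against 1775 by edgeR). At an adjusted p under 0.01 the member counts were 0 higher and 3 lower and the pathway counts 2 and 2 (edgeR, 6 and 9 members at an unadjusted p under 0.05). With the replicate block, 4 members were lower and pathway counts were 2 higher and 5 lower (755 genes called over the table). The block lost Wnt16 (adjusted p = 0.0503), Fzd3 (0.065), Dkk2 (0.068) and Fzd2 (0.097) and gained Lgr5 (0.041), the fit with no filter lost Wnt16 and Fzd2, and voom lost Fzd7 and gained Rspo1. Whether equal replicate numbers pair the libraries is not given. Deviations of same-numbered libraries correlated from -0.28 to 0.27, which cannot settle it with so few pairs. Leaving out single libraries gave 1 to 3 higher and 3 to 9 lower members, and 2 to 6 higher and 4 to 17 lower pathway genes. Calls over the table then ran from 864 to 2774. The leukocyte covariate gave 0 higher and 0 lower members and 1 and 0 pathway genes, and leaving out the 3 farthest libraries gave 0 higher and 1 lower member and 1 and 0 pathway genes.

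None of the 10 called genes changed sign in any alternative run, but every run refits libraries from which these genes were chosen. Of the genes named but not called, Dkk3 turned to a log2 fold change of 0.039 under limma voom, 0.036 with the block, 0.035 and 0.039 in the FPKM fits, 0.74 with the covariate and 0.52 without the 3 farthest libraries, and ran from -0.22 to 0.24 without single libraries. Sfrp2 turned to -0.0027 under voom, -0.0023 with the block and -0.0034 without the 3 farthest, and ran from -0.13 to 0.10 without single libraries. Lgr6 turned to 0.77 and Rspo3 to 0.18 with the covariate, and to 0.86 and 0.034 without the 3 farthest. The cause was not tested. Depth limits the genes with under about 10 counts per library, which were not tested.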
